A study of Homo sapiens with 7 samples.

Results

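FOXA1 sites found in both control libraries of 22Rv1 cells, in no LNCaP library and without a SETD7 peak were examined. Of 172239 merged FOXA1 sites, 13008 met this description, or 7.55%. The peaks of the 6 FOXA1 lists on chromosomes 1 to 22 and X were joined wherever they shared at least 1 bp. A merged site was kept when it held a peak of the 22Rv1 vehicle list and one of the 22Rv1 shCTL list, no peak of the 3 LNCaP lists and no SETD7 peak. The sites were thus chosen by presence or absence of a peak in these 6 lists, which is not a result. The list from shSETD7 cells took no part in the choice, apart from its peaks being merged into the sites.

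FOXA1 is a forkhead transcription factor that can bind its motif in closed chromatin. In prostate epithelium it helps open enhancers to the androgen receptor and other factors, and its set of bound sites differs between cell states. SETD7 is a lysine methyltransferase with histone and non-histone substrates, and LSD1 is a lysine demethylase.

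The study mapped both proteins by chromatin immunoprecipitation and sequencing in 2 established human prostate cancer lines, LNCaP and 22Rv1 (labelled CWR22-Rv1), with 1 library in each of 7 groups. In 22Rv1, SETD7 was mapped in cells labelled vehicle, and FOXA1 in cells labelled Veh, shCTL (a control hairpin) or shSETD7 (a hairpin against SETD7). The series' design describes the hairpin cells as stable and calls the control shNTC. The LNCaP cells, used for FOXA1 alone, were treated for 4 hours: 1 group had DMSO, 1 the LSD1 inhibitor GSK2879552, and 1 GSK2879552 and the SETD7 inhibitor PFI-2. That last label's treatment field reads as with or without PFI-2, and only its title names the combination. All 65461 peak names of the Veh list carry the tag siNTC, a tag that no label mentions, and the name vehicle follows the label alone.

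On the chromosomes used, FOXA1 peaks numbered 65093 in vehicle, 83633 in shCTL and 63682 in shSETD7. The LNCaP lists held 63866 to 83352 and the SETD7 list 25363. Each peak carries the authors' own score, a whole number of undefined meaning in the sources at hand. The lowest score was 13 in each 22Rv1 list and 40 to 48 in the LNCaP lists. Whether sites absent from LNCaP had signal below that higher floor was not tested. Read depth is unknown. Because each group is 1 library, conditions were compared without a test. Intervals in parentheses are 95% Wilson intervals for counting error alone, and neighbouring sites are not independent. Positions are on build hg19, counted from 1. Neither sequence nor gene annotation of that build was used here, so no motif, gene name or base is given.

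Few of the sites only in 22Rv1 controls came from the top of either control list. Both controls, without SETD7, shared 41618 sites, and 31.3% of these were absent from all LNCaP lists. The other 28610, which had a peak in at least 1 LNCaP list, serve below as the LNCaP-shared sites. Ranks are given as percent of the list counted from its highest score. The median rank of the sites only in 22Rv1 controls was 48.7% in the shCTL list, with quartiles of 29.5% and 68.1%. In the vehicle list it was 53.7%, with quartiles of 34.3% and 75.7%. LNCaP-shared sites had medians of 23.0% and 28.2%. Only 671 of the 13008 sites were in the first 10% of the shCTL list, or 5.16%, against 24.9% of LNCaP-shared sites. In the vehicle list the first 10% held 326 of them, or 2.51%, against 20.6%. Each later step of 10% from 20% downward held 9.16% to 12.9% of them in the vehicle list. In the shCTL list these steps peaked at 13.5% between 40% and 50% and ended at 5.00%. Since the highest ranks are the ones most often found in any other list, these ranks go with the rule and are given as a description.

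**Figure D1:**
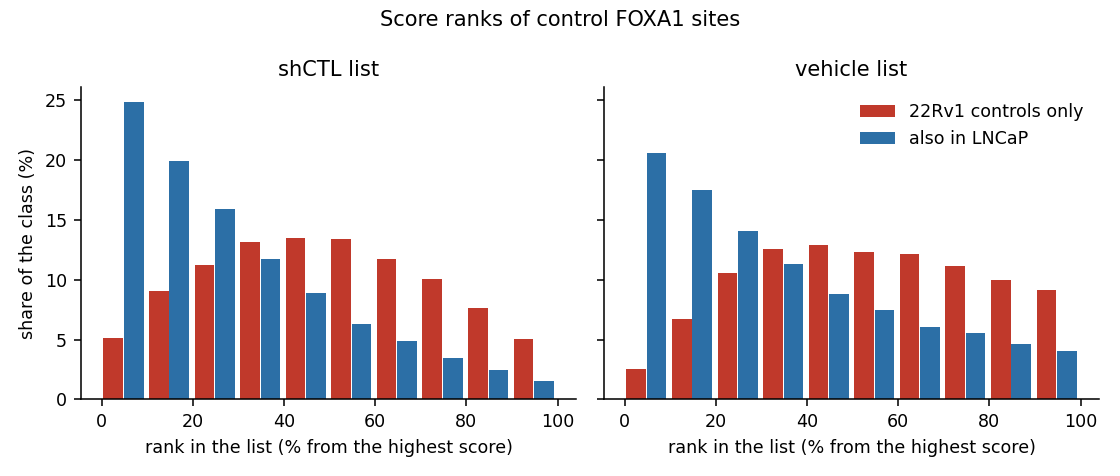
Share of each class of sites (y axis, percent) by rank in the shCTL list (left) and vehicle list (right), in steps of 10% from the highest score. In the first step bars of LNCaP-shared sites (blue) are highest, at 24.9% and 20.6%. Bars of sites only in 22Rv1 controls (red) are low there, at 5.16% and 2.51%. The lowest red bar is the last on the left (5.00%) and the first on the right.

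The share absent from LNCaP fell with the shCTL score in every step of 10 equal score groups. In the lowest group, with scores of 14 to 74, 58.5% of the control sites were absent from LNCaP. In group 5 (scores 197 to 268) the share was 33.8%, and in the highest group, from 1531 upward, 6.34%. Even so, 264 sites of that highest group had no LNCaP peak.

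Both controls did not rank the sites alike. Across the 13008 sites, Spearman's rho between shCTL and vehicle scores was 0.43, against 0.64 across LNCaP-shared sites, which span a wider range of scores. These are descriptions across sites of the same 2 libraries. Of the 671 sites in the first 10% of the shCTL list, 195 were also in the first 10% of the vehicle list and 98 lay in its lower-scoring 50%. In the other direction, 6 of the 326 strong vehicle sites lay in the lower-scoring 50% of the shCTL list. At 4409 sites, or 33.9%, both scores lay in the lower-scoring 50%.

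The sites were narrower than LNCaP-shared ones at equal shCTL score. A merged site grows with each list that adds a peak, and only LNCaP-shared sites hold LNCaP peaks. The widths therefore go with the rule and are given as a description. The median width was 377 bp against 494 bp over all score groups. In the highest score group it was 522 bp against 578 bp, and in the lowest 326 bp against 449 bp. At 12971 sites there was a single shCTL peak, and at 12916 a single vehicle peak.

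The 10 highest shCTL scores ranged from 5421 to 16141. First was chr3:170317688-170318282, 595 bp wide, with a score of 16141 in shCTL, 980 in vehicle and 128 in shSETD7. It was among the first 0.0311% of shCTL peaks and the first 2.03% of vehicle peaks, but at 36.9% in the shSETD7 list, so its rank there was far lower than in either control. The second, chr1:148846783-148847310, scored 9915 in shCTL and 535 in vehicle and had no shSETD7 peak. The nearest one lay 1759 bp away.

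The next 2 sites were strong in shCTL and ordinary in vehicle. The site chr3:133429775-133430441 scored 9257 in shCTL, 120 in vehicle (rank 36.5%) and 1213 in shSETD7. The site chr4:169363496-169363793, the narrowest of the 10 at 298 bp, scored 7872, 139 (rank 31.6%) and 10325. That shSETD7 score was the highest among all the sites only in 22Rv1 controls and lay in the first 0.104% of its list. Both hairpin libraries thus ranked this site near the top, and the vehicle library did not.

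Of the other 6, chr1:185460706-185461193 (6511 in shCTL, 568 in vehicle) and chr12:59177960-59178589 (6210 and 590) had no shSETD7 peak. The nearest shSETD7 peaks lay 299 bp and 17509 bp away. By contrast, chr12:88860425-88860923 kept a high rank in all 3 lists, with scores of 5829 in shCTL, 997 in vehicle and 3546 in shSETD7. A pair on chromosome 10, chr10:37462289-37462916 (5672 and 855) and chr10:37474072-37474714 (5668 and 978), had no shSETD7 peak on the site. The nearest shSETD7 peak lay 806 bp from the first site, and a different one lay 812 bp from the second. Last was chr9:77013961-77015112, 1152 bp wide, with 5421 in shCTL, 152 in vehicle and 53 in shSETD7. In all, 5 of these 10 sites had an shSETD7 peak and 7 were in the first 10% of the vehicle list. In the highest of the 10 groups of shCTL score, which includes these sites, 200 of 264 had an shSETD7 peak, or 75.8%. The nearest LNCaP peaks lay 3432 to 35458 bp away.

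Most sites lay more than 1 kb from any LNCaP peak. The rule leaves out sites that touch such a peak, so these distances go with the rule and are a description. No reference distance for other positions was worked out. The distance to the nearest peak of any LNCaP list had a median of 10557 bp, with quartiles of 4294 and 23838 bp. For 910 sites it was at most 1 kb, and for 462 it exceeded 100 kb. The nearest to the limit were chr14:94805957-94806260 (14 bp from an LNCaP peak, scores 49 in shCTL and 27 in vehicle), chr13:44624977-44625492 (15 bp, 274 and 84) and chr3:66271013-66271573 (24 bp, 149 and 53). Just outside the rule were sites whose control and LNCaP peaks shared the fewest bases. They were chr2:19065021-19065924 (3 bases, scores 96 and 43), chr4:15780791-15781278 (36 bases, 32 and 39) and chr1:27024542-27025473 (39 bases, 45 and 107).

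The shSETD7 list was then used to ask how many of these sites remained when the hairpin targeted SETD7. An shSETD7 peak was present at 6276 of the 13008 sites, or 48.2% (47.4 to 49.1). Over all sites of both controls the share was 57.3%, and at LNCaP-shared sites it was 61.3% (60.8 to 61.9). Where present, the shSETD7 score had a median of 156, and a median rank of 32.0% in its list. No shSETD7 peak lay within 1 kb at 6267 sites, or 48.2% (47.3 to 49.0), where the share over all control sites was 39.6%. The remaining 465 had none on the site but one within 1 kb.

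Presence in the shSETD7 list rose steeply with the shCTL score. It was 23.9% (22.2 to 25.6) in the lowest of the 10 score groups, 62.8% (60.2 to 65.3) in group 5 and 75.8% (70.2 to 80.5) in the highest. LNCaP-shared sites gave 25.4%, 57.3% and 83.1% in the same groups. The sites were also split into 3 equal classes by each control score. The shares ran from 27.0% of 2115 sites lowest in both to 73.5% of 2441 sites highest in both. Within the lowest shCTL class, the vehicle score made little difference, with 27.0%, 27.9% and 29.8% from low to high. Within the highest shCTL class the shares were 57.8%, 62.8% and 73.5%. Of the 195 sites in the first 10% of both control lists, 166 had an shSETD7 peak, or 85.1% (79.5 to 89.4). Of the 4409 in the lower-scoring 50% of both, 31.5% did (30.2 to 32.9).

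**Figure D2:**
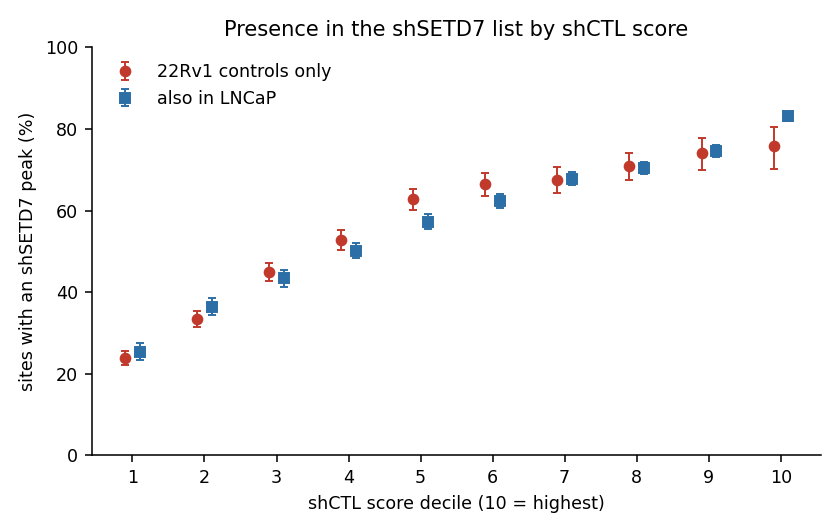
Share of sites with an shSETD7 peak (y axis, percent, with 95% Wilson intervals) by group of shCTL score (x axis, 10 = highest), for sites only in 22Rv1 controls (red circles) and LNCaP-shared sites (blue squares). Both classes climb together from the lowest group (23.9% and 25.4%) and part most in group 10 (75.8% and 83.1%).

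At equal shCTL score the gap between the classes nearly closed. Without matching, the difference (sites only in 22Rv1 controls minus LNCaP-shared sites) was −13.1 percentage points. Weighted to the same score groups, LNCaP-shared sites gave 47.7%, so the difference was 0.52 points (−0.56 to 1.60, counting error only). This interval includes 0, which does not show that the classes act alike. The sites only in 22Rv1 controls were higher in 5 score groups and lower in 5, and the 2 intervals were apart in 2 groups only. The difference was 5.52 points in group 5 and −7.36 points in group 10. The matched difference also depended on the score used for matching and on the peaks admitted. It was −4.38 points (−5.48 to −3.28) when matched by vehicle score and 15.2 points (13.8 to 16.6) for the higher-scoring 50% of every list. No direction is therefore given for it.

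Each 22Rv1 list was next left out in turn and then searched for sites with peaks in the other 2 and no SETD7 peak. This measures how often a site of 2 libraries is found in the remaining one, with or without the knockdown. For sites absent from LNCaP, 46.8% (45.9 to 47.6) of the sites of the hairpin lists were in the vehicle list. In the shCTL list the share was 76.8% (75.9 to 77.7) and in the shSETD7 list, as above, 48.2%. Over all such sites the background was 67.3% for vehicle, 89.0% for shCTL and 57.3% for shSETD7. For sites absent from LNCaP, the vehicle and shSETD7 shares count the same 6276 sites, out of 13424 and 13008. Over all such sites these 2 shares were further apart. Whether the knockdown changed presence was not tested.

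For sites in an LNCaP list the order was different. There 79.8% (79.3 to 80.4) were found in vehicle, 94.3% (94.0 to 94.6) in shCTL and 61.3% in shSETD7. At equal shCTL score, the difference in presence in the vehicle list, sites absent from LNCaP minus those in LNCaP, was −13.3 points (−14.5 to −12.1). In the shSETD7 list the corresponding difference was the 0.52 points above, and matched by vehicle score it was −4.38 points (−5.48 to −3.28). At equal shSETD7 score the vehicle difference was larger, at −24.5 points (−25.5 to −23.4). For presence in the shCTL list the difference was −13.2 points (−14.2 to −12.1) matched by vehicle score and −14.3 points (−15.3 to −13.3) matched by shSETD7 score. The 3 comparisons start from different pairs of lists, and the shCTL list is the longest.

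**Figure D3:**
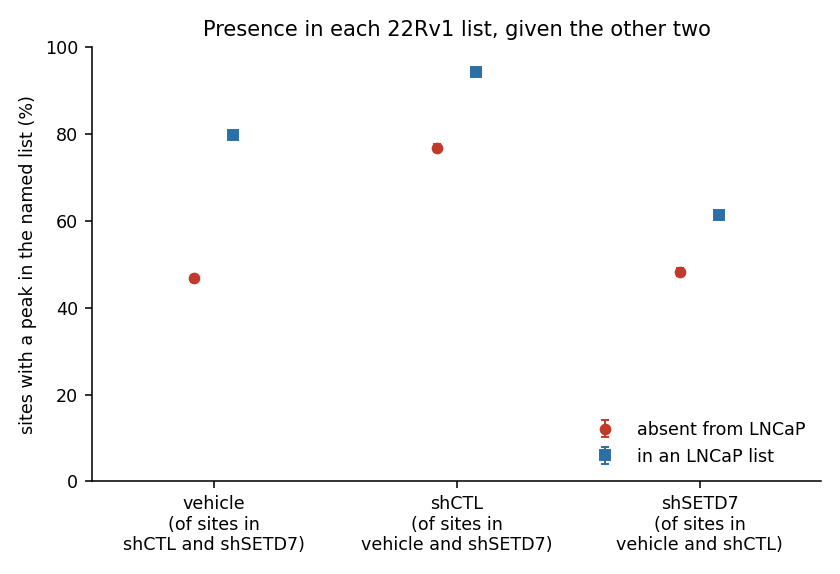
Share of sites with a peak in the named 22Rv1 list (y axis, percent) among sites with peaks in the other 2 lists, for sites absent from LNCaP (red circles) and in an LNCaP list (blue squares). The 95% Wilson intervals are about as small as the symbols, and the 2 classes lie furthest apart for vehicle (46.8% and 79.8%) and nearest for shSETD7 (48.2% and 61.3%).

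The strongest sites without an shSETD7 peak within 1 kb were the sites of chromosome 1 (9915) and chromosome 12 (6210) described above, followed by 3 sites of lower vehicle rank. These were chr7:146862354-146863044 (4699 in shCTL, 203 in vehicle), chr7:11145170-11145741 (4451 and 102) and chr18:67437163-67437806 (4092 and 123). Their nearest shSETD7 peaks lay 57564, 31557 and 16736 bp away.

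The sites with the highest shSETD7 scores were, after the site of chromosome 4, strong in all 3 libraries. The site chr22:45809325-45809844 scored 8238 in shSETD7, 4663 in shCTL and 1263 in vehicle. At chr3:53193162-53193962 the scores were 6751, 3822 and 910, and at chr8:48664447-48665289 they were 6609, 4560 and 1204. At chr12:96359910-96360704 they were 6546, 4371 and 1747. These 4 sites were in the first 2.36% of the vehicle list and the first 1.26% of the shCTL list, and their nearest LNCaP peaks lay 2894 to 31692 bp away.

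The sites were spread over all 23 chromosomes but unevenly. The share of control sites absent from LNCaP was highest on chromosome 7, at 38.4% (36.7 to 40.1), chromosome 8, at 36.5% (34.6 to 38.4), and chromosome 1, at 36.4% (35.0 to 37.8). It was lowest on chromosome 17, at 24.8% (22.4 to 27.4), chromosome 15, at 24.9% (22.3 to 27.6), and chromosome X, at 25.5% (22.8 to 28.4). Chromosomes 1, 3, 7, 8 and 12, grouped in earlier work on these lists for their many SETD7 peaks, held 45.0% of the sites only in 22Rv1 controls and 36.3% of LNCaP-shared sites. On these chromosomes 36.1% of control sites were absent from LNCaP (35.3 to 36.8), against 28.2% elsewhere (27.6 to 28.7). This contrast uses the lists of the rule and is a description.

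Presence in the shSETD7 list also differed between chromosomes. It was highest on chromosome 19, at 68.2% of 245 sites (62.1 to 73.7), chromosome 15, at 59.0% of 249 (52.8 to 65.0), and chromosome 22, at 58.9% of 124 (50.1 to 67.1). The lowest shares were 40.1% of 142 sites on chromosome 21 (32.4 to 48.4), 41.5% of 813 on chromosome 4 (38.1 to 44.9) and 42.7% of 916 on chromosome 8 (39.5 to 45.9). On all 23 chromosomes the share was below that of LNCaP-shared sites of the same chromosome, without matching for score. Over the 23 chromosomes the 2 classes ran together, with a Spearman's rho of 0.79, as a description across chromosomes that share the same libraries. Chromosome 19 was first in both classes, with 85.2% for LNCaP-shared sites.

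**Figure D4:**
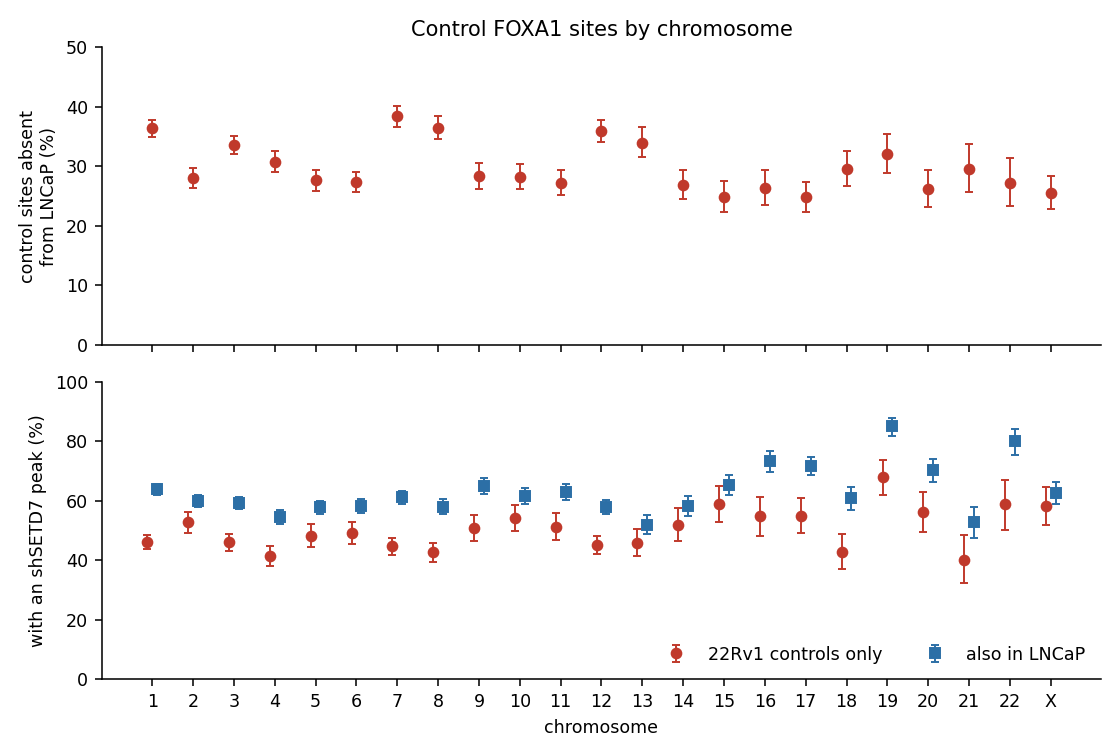
Upper panel: share of control sites absent from LNCaP on each chromosome (percent, 95% Wilson intervals). Lower panel: share with an shSETD7 peak for sites only in 22Rv1 controls (red circles) and LNCaP-shared sites (blue squares); every red circle lies below its blue square, and both peak on chromosome 19 (68.2% and 85.2%).

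On chromosomes 3 and 8 the share in the shSETD7 list was split at 78 Mb and 36 Mb, positions taken from earlier work on these lists. On chromosome 3, 57.1% of 345 sites before 78 Mb had an shSETD7 peak (51.8 to 62.2), and 41.7% of 889 after it (38.5 to 45.0). LNCaP-shared sites fell likewise, from 69.7% to 53.8%. On chromosome 8, 37.6% of 197 sites before 36 Mb had one (31.1 to 44.5) and 44.1% of 719 after it (40.5 to 47.7), so the intervals overlapped. LNCaP-shared sites there gave 62.1% and 57.0%.

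A finer scale was also used. In 262 windows of 10 Mb with at least 20 sites of each class, the share with an shSETD7 peak had a median of 50.5% for sites only in 22Rv1 controls and 62.2% for LNCaP-shared sites. Without matching for score, it was lower for the sites only in 22Rv1 controls in 224 of the 262 windows. Across windows the 2 shares had a Pearson's r of 0.59 and a Spearman's rho of 0.59, as a description of windows from the same libraries. The lowest windows were 20 to 30 Mb of chromosome 21 (12 of 51 sites, 23.5%) and 60 to 70 Mb of chromosome 18 (14 of 57, 24.6%). The highest were 40 to 50 Mb of chromosome 19 (59 of 70, 84.3%) and 40 to 50 Mb of chromosome 5 (18 of 22, 81.8%). In the window of chromosome 5 LNCaP-shared sites were at 50.7%, so there the sites only in 22Rv1 controls were the more often present. These windows were named after their values were seen.

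Sites only in 22Rv1 controls were clustered in part. A cluster was a run of at least 3 such sites with neighbouring midpoints within 25 kb. There were 314 clusters with 1033 sites, or 7.94% (7.49 to 8.42), while 9461 sites were alone and 2514 in pairs. Of the LNCaP-shared sites, which are more than double in number and so closer together, 20.2% were in clusters. A measure free of that density was the class of the nearest other control site. It was absent from LNCaP for 35.4% of the sites only in 22Rv1 controls (34.6 to 36.2) and for 29.5% of LNCaP-shared sites (29.0 to 30.1). Over all control sites 31.3% were absent from LNCaP. The classes come from the lists of the rule, so this is a description. With a neighbour under 5 kb away these shares were 35.1% and 31.7%, and with one beyond 100 kb 32.4% and 30.5%. In both cases the intervals overlapped. With a neighbour at 25 to 50 kb the shares were 37.3% and 27.9%. The difference thus did not fall steadily with distance.

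Neighbours also tended to share their state in the shSETD7 list. A site only in 22Rv1 controls had an shSETD7 peak in 52.2% of cases (51.1 to 53.4) where the nearest control site had one, and in 43.3% (42.1 to 44.6) where it did not. These shares were 51.0% and 44.2% for neighbours under 5 kb away, and 59.0% and 46.5% for those beyond 100 kb. The difference was therefore not limited to close neighbours, and scores were not matched. Sites in clusters had one in 43.7% of cases (40.7 to 46.7), against 48.6% of the others (47.8 to 49.5). Of the 314 clusters, 217 were mixed, 63 had no site with an shSETD7 peak and 34 had one at every site.

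Of the 314 clusters, 15 held at least 5 sites. The 5 described were taken by number of sites and, among ties, by sites per kb, so the last is 1 of several with 5 sites. The first lay at chr7:81234780-81361422, with 13 sites over 127 kb and shCTL scores of 75 to 2258. An shSETD7 peak was present at 4 of the 13, the strongest among them scoring 2258 in shCTL, 1361 in vehicle and 563 in shSETD7. Among the 13 lay a single LNCaP-shared site, with a score of 13501 in shCTL and 380 in DMSO. LNCaP had 1 peak per list in this stretch, where shCTL had 21 and vehicle 17. The LNCaP and control peak counts of the clusters use lists of the rule and are a description.

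The second cluster, chr10:37428255-37477855, had 7 sites over 49.6 kb, and none of the 7 had an shSETD7 peak. This was not a cluster of weak sites. Their shCTL scores were 197, 1152, 2676, 5672, 481, 5668 and 572 in order along the chromosome, and their vehicle scores 82, 363, 572, 855, 73, 978 and 142. The LNCaP-shared site among them scored 9581 in shCTL, 1617 in vehicle, 831 in shSETD7 and 264 in DMSO. The shSETD7 list held 9 peaks within the stretch with a median score of 104, so the stretch was not empty in that library, and the SETD7 list held 5. At the next LNCaP-shared site along the chromosome, chr10:37485747-37486431, shCTL scored 5303 and shSETD7 32.

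The other 3 kept more of their sites. At chr1:208817663-208876736, 5 of 7 sites had an shSETD7 peak, and no LNCaP list held any peak in the 59.1 kb. Its strongest site scored 4441 in shCTL, 1201 in vehicle and 4133 in shSETD7. At chr8:114415863-114476733, 3 of 7 had one, with shSETD7 scores of 288 to 1281, and again no LNCaP peak was present. At chr3:197815491-197830293, 5 sites lay within 14.8 kb and 4 had an shSETD7 peak, with scores of 197 to 1154.

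**Figure D5:**
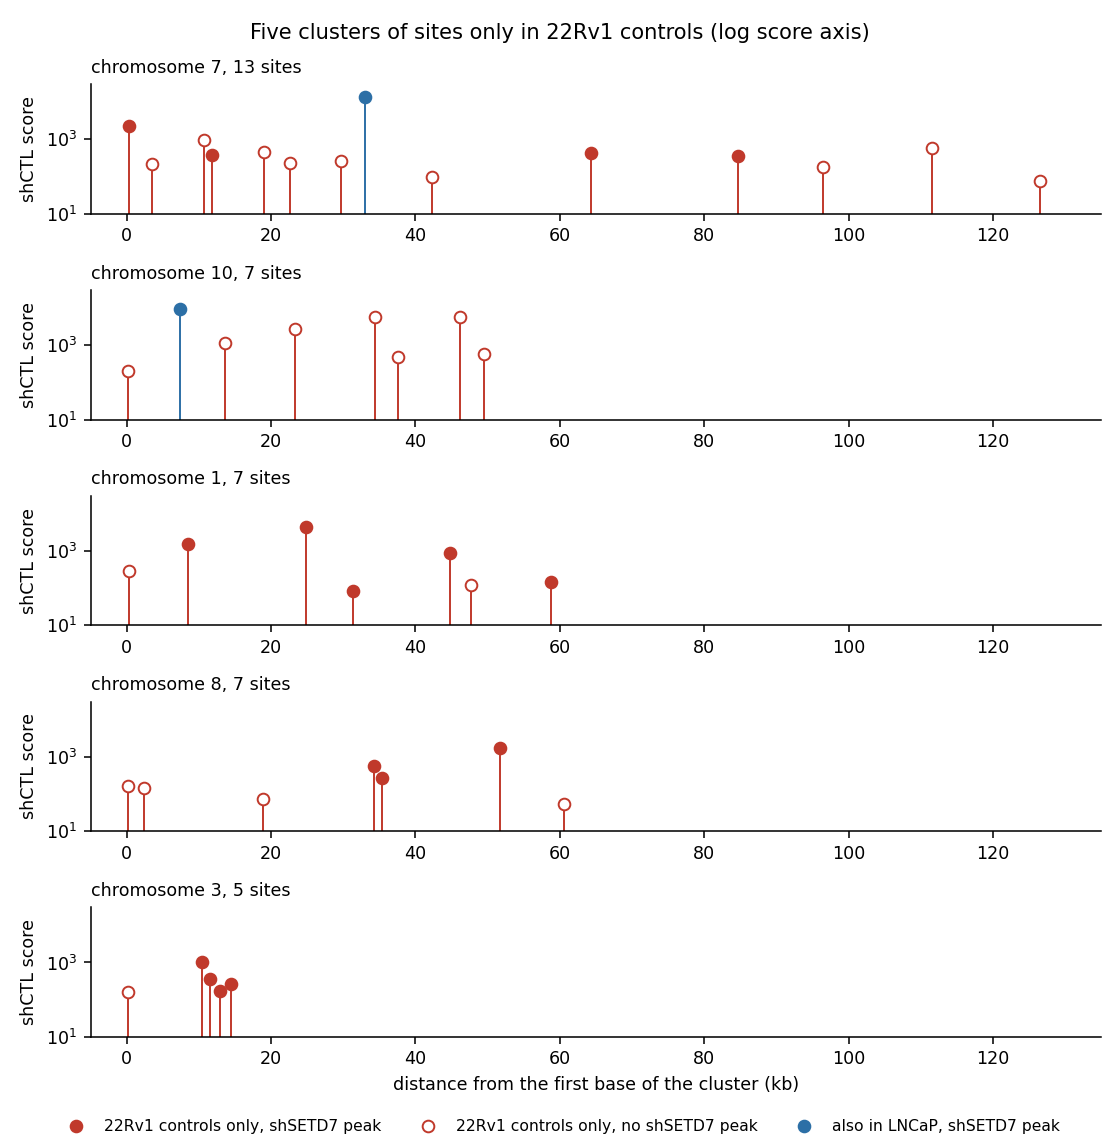
The shCTL score (y axis, log scale) of each control site in the 5 described clusters against its distance from the first base of the cluster (x axis, kb). Filled red circles are sites only in 22Rv1 controls with an shSETD7 peak, open red circles those without, and blue circles LNCaP-shared sites; all 7 red circles of the chromosome 10 cluster are open, up to a score of 5672.

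Uninterrupted runs of control sites absent from LNCaP reached further than clusters. Of 8450 runs, 5741 were of 1 site, 186 held at least 5 and 12 at least 10. The 5 longest are named here after their values were seen. A run holds no LNCaP-shared site by definition, so few LNCaP peaks within it go with the rule and are a description. The longest, at chr1:194347632-195873328, held 30 sites over 1.53 Mb with no LNCaP-shared site, and shCTL scores of 38 to 1136. Each LNCaP list held 1 peak there, whereas vehicle held 63, shCTL 66 and shSETD7 61, and the SETD7 list 77. Of the 30 sites, 10 had an shSETD7 peak, so most of the 61 shSETD7 peaks lay elsewhere in the stretch, and their median score was 43.

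The next longest run, at chr7:125875636-126483904, held 18 sites, 4 of them with an shSETD7 peak, and 1 peak in each LNCaP list against 36 in shCTL. At chr6:66049491-66681597 there were 15 sites, 3 with an shSETD7 peak. That stretch had 22 peaks in shCTL, 18 in vehicle and 5 in shSETD7. It had none in DMSO and 1 each with GSK2879552 and with the combination. At chr1:208817663-209165514 there were 13 sites, 6 with an shSETD7 peak, and no LNCaP peak in 348 kb. The fifth, at chr12:40719220-41247457, held 12 sites, 4 with an shSETD7 peak.

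Over 545 windows of 5 Mb with at least 30 control sites, the share absent from LNCaP ranged from 0% to 62.9%, with a median of 29.3% and quartiles of 24.2% and 36.2%. It exceeded 50% in 12 windows, 8 of them on chromosomes 1, 3, 7, 8 and 12. These chromosomes held 16237 of the 41618 control sites. How many of the 545 windows lay on them is not given here, so the count of 8 does not show a concentration. The highest was 110 to 115 Mb of chromosome 8, with 61 of 97 control sites (62.9%, 53.0 to 71.8). The DMSO list held 56 peaks in that window and the vehicle list 159, a ratio of 0.352, where the median window had 1.26. Next were 30 to 35 Mb of chromosome 4 (38 of 62, 61.3%) and 195 to 200 Mb of chromosome 1 (84 of 142, 59.2%), with ratios of 0.414 and 0.472. The lowest was 145 to 150 Mb of chromosome 2, where none of 33 control sites was absent from LNCaP, which has an upper Wilson limit of 10.4%, and the ratio was 3.13. The last of these 3 rich windows held 117 DMSO and 248 vehicle peaks, and the lowest window 141 and 45. The share and the ratio use the same lists as the rule, and these windows are a description.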

How the data were processed

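The submitters' processing notes list build hg19 and, without roles or settings, MACS2 2.1.4, BWA 0.7.17-r1188, FastQC 0.11.9 and SAMtools 1.9. The deposited files hold 1 peak list per library, and the deposited score of a peak is the authors' own value. It served to order or select the peaks of 1 list at a time. The sources used here give neither the peak threshold nor an input control.

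Peaks on chromosomes 1 to 22 and X were merged and classed as stated in the report. Classes were compared within 10 groups of shCTL score, weighted by the sites only in 22Rv1 controls, with intervals from binomial counting error. The merging gave the same 172239 sites and 13008 members as bedtools 2.31.1. On simulated presence over 41618 sites, a difference of −10 points was recovered as −9.68. Named sites were the highest scores of each class, 5 clusters by number of sites (ties by sites per kb), the extreme chromosomes and the sites nearest the overlap limit. The members, lists, boundaries and comparisons were chosen with earlier results of these data known. Alternatives covered overlap, score, list length, the absence rule, matching and cluster gap. Scripts ran in Python 3.11.15 with scipy 1.17.1, numpy 2.4.6, matplotlib 3.10.9 and pandas 2.3.3.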

Additional observations from a re-analysis of the deposited data

How the results depend on the processing

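Of 47 alternatives over 5 results, 32 moved the value out of its interval (for the number of sites, by over 1.5 times) and 15 did not. The 5 values are given in this order: number of sites (13008), share of control sites absent from LNCaP (31.3%), share with an shSETD7 peak (48.2%), matched difference (0.52 points) and share in clusters (7.94%). With the higher-scoring 50% of each list they came to 8278, 36.3%, 64.8%, 15.2 points and 2.51%. With the vehicle list not required they were 39244, 48.3%, 34.2%, −1.61 points and 33.1%. Moved values after the number of sites, in the same order, were 28.8%, 51.3% and 12.7% (difference not moved) with peaks within 1 kb. They were 37.7%, 51.0%, 3.73 points and 9.09% with absence from DMSO only, and 32.4%, 53.5% and 7.01% with equal-sized lists (difference not moved). With midpoints within 200 bp the absent share was 32.0% and the share with an shSETD7 peak 46.3%. With SETD7 sites kept in, the share with an shSETD7 peak was 49.7% and the clustered share 8.79%. Without chromosomes 1, 3, 7, 8 and 12 the share with an shSETD7 peak was 50.8%. The difference was −4.38 points matched by vehicle score and −13.1 without matching. Chosen after seeing the data, it was 1.61 against sites in all 3 LNCaP lists, 6.75 with the higher-scoring 50% of the 22Rv1 FOXA1 lists and 7.23 with that of the LNCaP lists. Cluster gaps of 10 and 50 kb gave 1.41% and 20.4%. Shorter lists, looser rules and other gaps change counts by their construction. For the others the cause was not tested. No paired analysis was possible because each group has 1 library.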

Other observations

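The LNCaP-shared sites were not uniform in the shSETD7 list. Control sites with an LNCaP peak only with GSK2879552 numbered 792, and 73.0% of them had an shSETD7 peak (69.8 to 76.0). At the shCTL score weights of the sites only in 22Rv1 controls this was 65.3%, against 48.2% for those sites themselves. Sites with peaks in DMSO and GSK2879552 but not in the combination (502) gave 76.9%, or 65.8% at those weights. Sites with peaks in GSK2879552 and the combination but not in DMSO (815) gave 72.1%, or 62.7%. By contrast, the 2075 sites in DMSO and the combination without GSK2879552 gave 41.8% (39.7 to 43.9), or 37.9% at those weights. Sites in DMSO only (775) gave 55.7%, or 51.5%, and those in the combination only (1088) gave 51.7%, or 48.8%. The 22563 sites in all 3 LNCaP lists, by far the most numerous, gave 62.7%, or 46.6% at those weights. The 3 highest shares thus belonged to small classes with a GSK2879552 peak, while the class in all 3 lists, which also has one, was not among them.

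The rule left out 502 further sites of both controls that had no LNCaP peak but held a SETD7 peak. Of these, 434 had an shSETD7 peak, or 86.5% (83.2 to 89.2), against 48.2% of the 13008 sites without a SETD7 peak. Their scores were not matched. The share at control sites with both an LNCaP and a SETD7 peak is not given here. The high share is therefore not shown to be particular to sites absent from LNCaP. The sites only in 22Rv1 controls lay a median of 48593 bp from the nearest SETD7 peak, and LNCaP-shared sites 62895 bp, with 19.6% and 16.0% of them within 10 kb.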
